A study of Canis lupus familiaris with 10 samples.

Results

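Early-stage canine cutaneous histiocytoma (CCH) was described here from 5 libraries, all those that the labels place in the early group, of 10 in the series. They were chosen by the stage written in the column names of the deposited table, and no comparison with the late stage was made. The study measured gene expression with QuantSeq 3′, a method that reads a short fragment next to the poly(A) tail of a transcript, whose level therefore does not depend on its length. Each library came from formalin-fixed, paraffin-embedded (FFPE) tumor tissue of a privately owned dog, was assigned to group 1 of the Cockerell and Slauson staging scheme and is labeled as a reanalysis of an earlier entry. The labels of the early dogs give ages of 0.5, 0.75, 3 and 5 years, with 1 age not stated, and name French Bulldog, Goldendoodle, Terrier and Boxer as breeds. There were 2 neutered males, 1 male and 1 female, and the sex of 1 dog was not stated. No treatment is named for any of them. The share of RNA fragments longer than 200 bases was 68.5% ± 2.46 (SD, n = 5), with a range of 64.5% to 71.2%. According to the methods, tissue next to the tumor was removed and whole cross sections were used, so that each library holds RNA of tumor cells, infiltrating cells and remaining skin together. Fewer cells of a type and less RNA per cell cannot be told apart in such bulk samples. A column name does not show which dog a library is from, so the libraries are numbered 1 to 5 only as names, and age, sex and RNA quality could not be set beside single libraries.

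The cells of CCH, a tumor seen above all in dogs at a young age, belong to the lineage of Langerhans cells. These dendritic cells reside in the epidermis, take up antigen, carry it to lymph nodes and present it to T cells on major histocompatibility complex (MHC) class II molecules. They carry CD1a, which presents lipids, E-cadherin, which anchors them to keratinocytes, and the integrin pair CD11c and CD18. The tumor usually regresses without therapy, and regression is accompanied by infiltrating lymphocytes, most of which carry CD8. CD3D, CD3E and CD3G encode chains of the CD3 complex that carries the signal of the T-cell receptor into the cell, and CD2 encodes an adhesion receptor of T cells.

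The early libraries held between 3132916 and 4439709 reads assigned to genes, and between 16294 and 16710 genes had at least 1 read. Values are normalized read counts, in which 1 read was worth between 0.788 and 1.07. The limit that a count of 0 allows, 3 reads, corresponded to 2.36 to 3.22 and covers counting error only. A mean of at least 50 was reached by 8248 of 23266 genes. Rows of 5 values follow libraries 1 to 5. No p-values are given, since all libraries belong to 1 group, and 5 libraries are too few for correlations.

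The most abundant transcripts in early CCH were those of the cytoskeleton, of ribosomes and of antigen presentation. TMSB10, which encodes an actin-binding thymosin, had the highest mean with 40202 ± 13519 (SD, n = 5). HLA-DRB1, the MHC class II beta chain under the symbol the table uses, followed with 32784 ± 6528. The 20 most abundant genes together took 11.9% ± 1.41 of all normalized reads, and TMSB10 alone took 1.21% ± 0.387. Ribosomal protein genes made up 5 of these 20 (RPLP1, RPL13A, RPS28, RPS29 and RPS20) and 50 of the 100 most abundant. The others that carry a name were VGF, MIR8858, TMSB4X, COL1A1, B2M, CD74, TPT1, ACTB and S100A6.

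**Figure D1:**
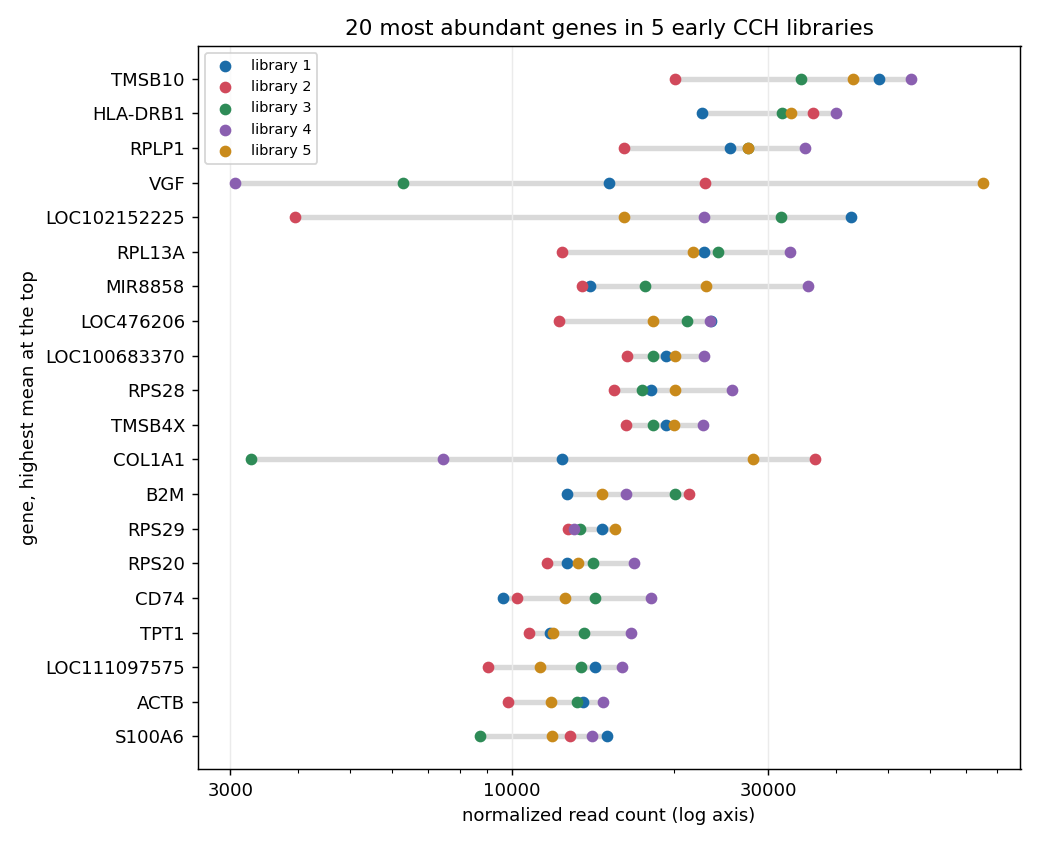
Normalized read count on a log axis (x) of the 20 genes with the highest mean in early CCH (y), with 1 point per library and a gray bar from the lowest to the highest value. Most genes span less than 2-fold, while VGF, LOC102152225 and COL1A1 spread over more than 3-fold.

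Most of these 20 genes were held at similar levels in the 5 tumors. The highest value was under 2 times the lowest in 13 of them, with a median of 1.77-fold and a minimum of 1.23-fold for RPS29. HLA-DRB1 had values of 22612, 36309, 31855, 40108 and 33034. CD74, the chaperone that escorts MHC class II molecules, had 9628, 10250, 14296, 18165 and 12591. B2M, the light chain of MHC class I, had 12676, 21358, 20118, 16319 and 14746. Library 1 had the lowest value of all 3 of these antigen presentation genes.

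VGF, COL1A1 and LOC102152225 stood apart from this pattern, each with a spread of more than 3-fold. VGF, which encodes a secreted precursor of neuropeptides, had 15164, 22841, 6272, 3060 and 75240, so that library 5 lay 24.6-fold above library 4. Its mean of 24515 ± 29396 (SD, n = 5) was the fourth highest of all genes. Whether all of these reads stem from VGF or in part from an overlapping or adjoining transcript was not tested. AP1S1, which lies within 2 kb of VGF in the RefSeq table of a newer dog assembly and encodes an adaptor of vesicle coats, had values of only 249 to 301. COL1A1, a chain of type I collagen, had 12407, 36618, 3282, 7456 and 28154, with libraries 2 and 5 above the other 3. LOC102152225, which has no entry in that RefSeq table, had 42831, 3958, 31733, 22829 and 16196, with library 2 far below the rest.

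The levels of several abundant genes are uncertain because a read that maps to more than 1 place was split evenly. TMSB4X and LOC100683370 differed by a factor of only 1.0018 to 1.0039 in every library and therefore rest on largely the same reads. The same limit holds for ribosomal protein genes, which have many processed copies. MIR8858 is annotated as a microRNA, while the assay captures polyadenylated RNA, so that its value of 20748 ± 9143 is no measure of the mature microRNA.

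Several genes of the labeled cell type were expressed in every early library. Others on the list of Langerhans and dendritic cell genes were scarce, such as CD1B and CD1C, with at most 6.3 and 9.5. ITGB2, the CD18 chain, had values between 1882 and 3149, and CD86, a costimulatory ligand for T cells, between 1829 and 2582. ITGAX, the CD11c chain, had 271, 295, 1192, 1024 and 499. CD1A8, a canine CD1a gene, had 62.8, 42.8, 262, 216 and 316, and CDH1, which encodes E-cadherin, had 198, 135, 331, 324 and 66.6. ITGAX, CD1A8 and CD1A6 (122, 282, 568, 944 and 330) were thus lowest in library 1 or 2, and CDH1, which keratinocytes make as well, was lowest in library 5. CD207, the gene of langerin, was not analysed here.

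The sum of the dendritic list varied little, although some of its genes did not. Of its 21 genes in the table, 13 had a mean of at least 50, and their median SD on the log2(value + 1) scale was 0.87, against 0.34 over all 8248 genes. The list summed to 7591, 8339, 8473, 9055 and 8118, a range of 1.19-fold, and ITGB2 and CD86 make up more of it than any other gene. CD1A8, CD1A6 and ITGAX ranged 7.37-, 7.74- and 4.39-fold, so the sum does not describe them. They were lowest in libraries 1 and 2, where ITGB2 was highest. FLT3, the receptor of a dendritic cell growth factor, had 447, 136, 386, 128 and 362 and was low in libraries 2 and 4. MHC class II genes summed to 45804, 62639, 67746, 81401 and 67740. None of the 9 MHC class II genes with a mean of at least 50 reached an SD of 1, against 6.67% of all genes. Their median SD was 0.44, and 9 genes are too few to tell a difference from that share. DLA-DOB, part of a regulator of peptide loading, had the highest SD of the 9 at 0.72. Genes of proliferation had sums between 6338 and 8140 and a median SD of 0.31 over 22 genes, near the 0.34 of all genes. CDK1, the kinase that drives mitosis, was the only one of these 22 with an SD of at least 1, at 113, 118, 90.5, 21.3 and 97.7. This share of 4.55% lay near the 6.67% of all genes.

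**Figure D2:**
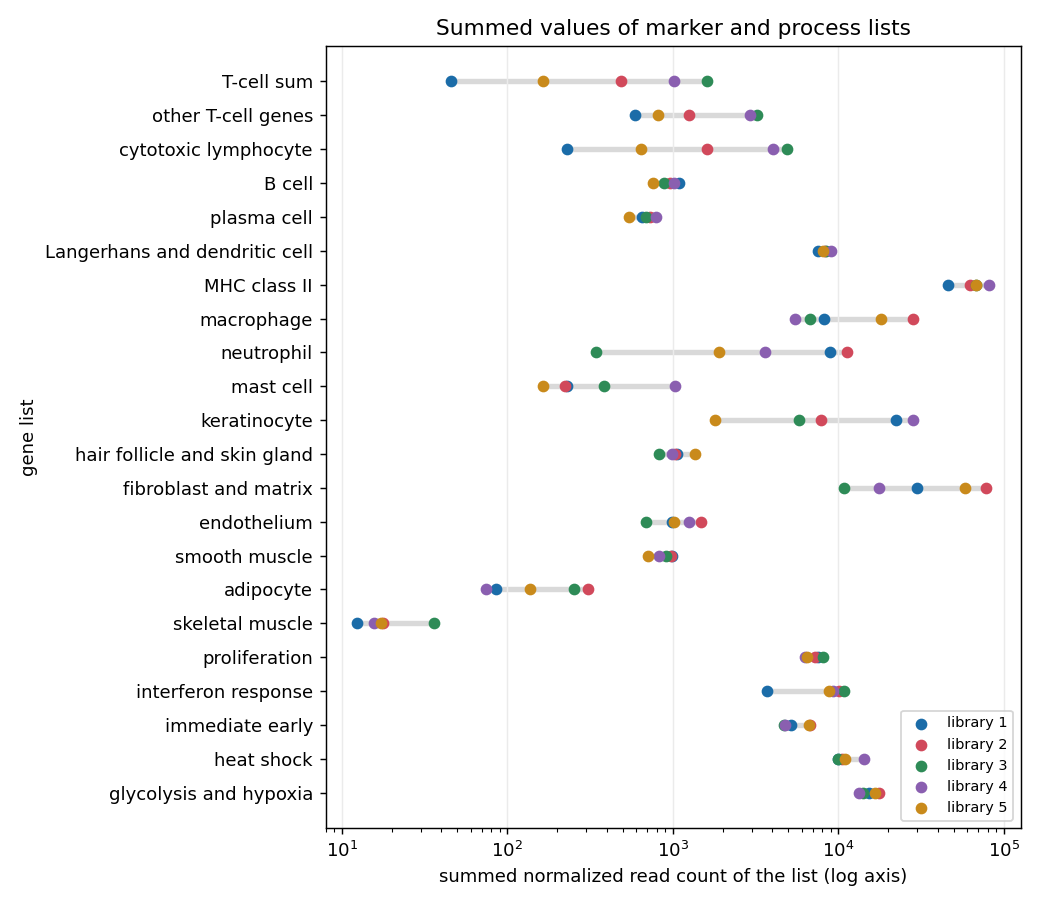
Summed normalized read count on a log axis (x) of 22 fixed gene lists (y), with 1 point per library and a gray bar from the lowest to the highest sum. The dendritic, B-cell and proliferation sums lie close together, while the sums of T-cell, neutrophil and keratinocyte genes spread over more than 10-fold.

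A gene was called variable with an SD of log2(value + 1) of at least 1 over the 5 libraries, which 550 of the 8248 genes reached (6.67%). An SD of at least 2 was found in 95 genes. The median SD of all 8248 genes was 0.34, and read counting alone would give a median of 0.11. All 550 variable genes had an SD of more than 2 times the counting SD, as did 78.4% of all genes. PAK3 lay just inside and TAF4 just outside the threshold, each with an SD that rounds to 1.00. Library 2 held the highest value of 202 of the 550 variable genes and the lowest of 47. The highest value of a variable gene lay in library 1 for 55, in library 3 for 109, in library 4 for 128 and in library 5 for 56 genes.

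**Figure D3:**
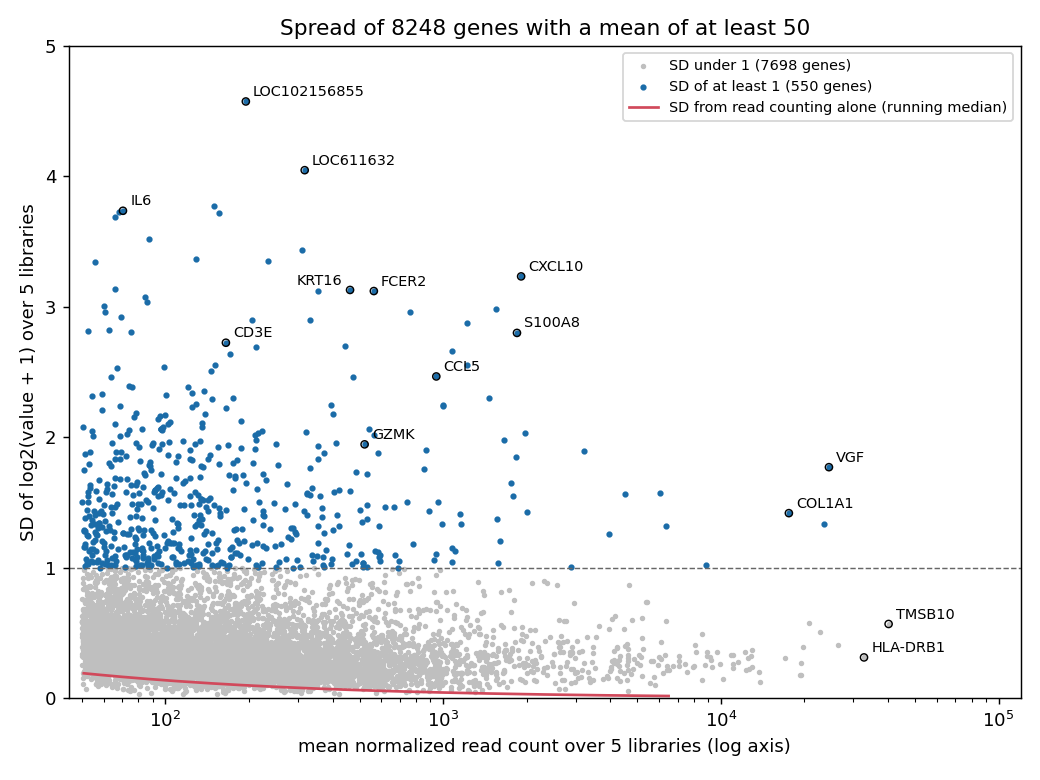
SD of log2(value + 1) over 5 early libraries (y) against the mean normalized read count on a log axis (x), with 1 point per gene for 8248 genes. The dashed line marks an SD of 1 and the red line the SD that read counting alone would give, which lies below all of the 550 variable genes drawn in blue.

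The 20 most variable genes had an SD of between 3.00 and 4.57, and they include chemokines, cytokines and keratins as well as 7 genes known only by a LOC symbol. CXCL10, a chemokine induced by interferon that attracts T cells, was the most abundant of them with 15.2, 3154, 1965, 888 and 3526. It was thus nearly missing from library 1 and high in the other 4 tumors. Without library 1, its SD was 0.90 instead of 3.23. CXCL13, which attracts B cells, had 7.6, 1586, 18.997, 12.6 and 150, and was highest in library 2. FCER2, the low-affinity IgE receptor CD23, had 73.3, 150, 17.2, 9.5 and 2566, with library 5 far above the others. Its SD was 1.78 without library 5 and 3.12 with it.

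IL6, a cytokine of acute inflammation, had 40.9 and 310 in libraries 1 and 2, a single read in library 3 and none in libraries 4 and 5. CCL24, a chemokine for eosinophils, had 74.3, 152 and 114 in libraries 1, 2 and 5 and no read in libraries 3 and 4. LOC106558858 had the same libraries at 0, with 178, 92.1 and 60.1 in libraries 1, 2 and 5. GPR33, an orphan receptor of the chemoattractant family, had 204, 187 and 44.0 in libraries 3, 4 and 5. It had at most 2 reads in libraries 1 and 2. PDCD1, the inhibitory receptor PD-1 of T cells, had 0, 44.7, 241, 118 and 19.3. FCRL4, a receptor of the Fc receptor-like family known from memory B cells, had 142, 85.9 and 50.5 in libraries 2, 3 and 5 and at most 1 read in libraries 1 and 4.

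The remaining genes of the 20 differed in which tumors were high. LOC102156855, annotated as a long noncoding RNA and the gene with the largest SD, had 547 and 425 in libraries 3 and 5 and at most 1 read in the others. LOC611632, LOC482436 and LOC612036, all annotated as protein coding, had 1562, 1114 and 315 in library 2 and no more than 38.1 in any other. LOC609263, annotated as the constant region of an antigen receptor, had 2.9, 122, 526, 96.9 and 0. OBP, which encodes an odorant-binding protein, had 3.8, 21.4, 601, 0 and 156, and NECAB1, a calcium-binding protein, had 256, 57.7, 453, 778 and 1.1. OOEP, known from oocytes, was found in every library except library 4. LOC111095666, a long noncoding RNA, was highest in library 4 with 255 and had no more than 27.1 elsewhere.

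**Figure D4:**
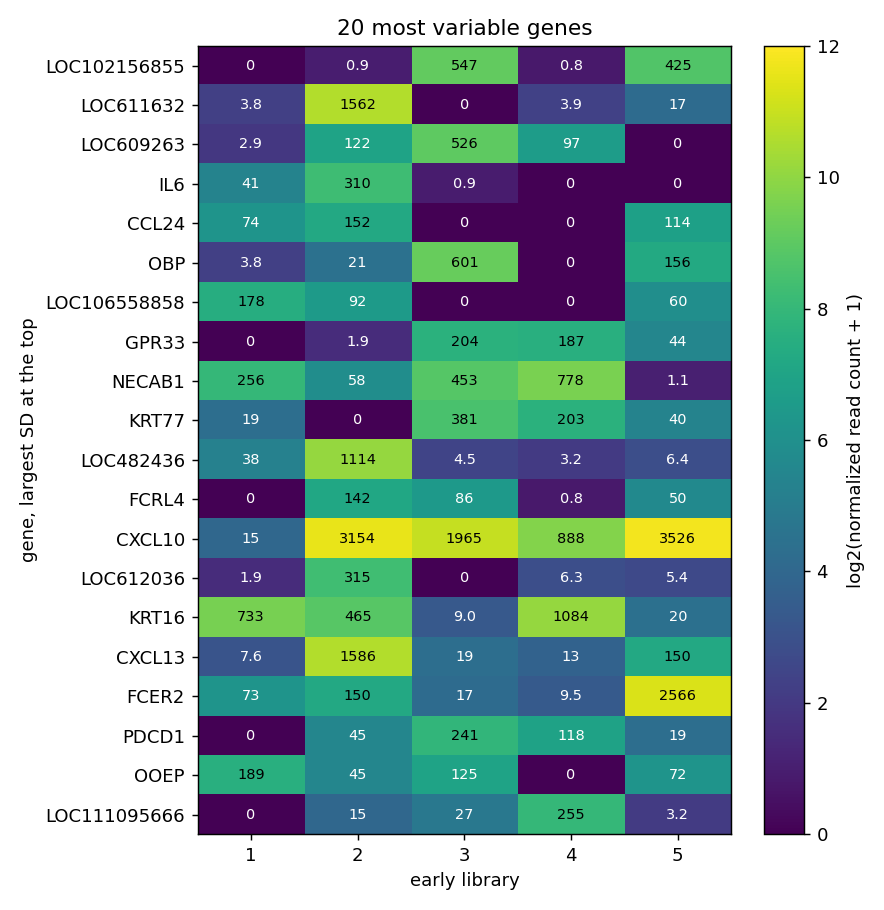
Heat map of the 20 genes with the largest SD of log2(value + 1) among 8248 genes (y) in 5 early libraries (x), with color for log2(normalized read count + 1) and the normalized read count written in each cell. Library 2 stands out for LOC611632, LOC482436, LOC612036 and CXCL13, and library 5 for FCER2.

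Keratinocyte genes formed the largest group of variable genes on any list. Of 25 keratinocyte genes with a mean of at least 50, 24 were variable (96%, against 6.67% of all genes). The list summed to 22281, 7840, 5813, 28254 and 1802. KRT14, the keratin of basal keratinocytes, had 3896, 1529, 465, 3854 and 151. KRT10, which replaces it in the upper epidermis, had 3110, 326, 1218, 4277 and 250. Libraries 1 and 4 were therefore high for basal and for suprabasal keratins, and library 5 was lowest for both. The exception was TP63, a transcription factor of epithelial stem cells, with 125, 80.0, 76.9, 94.5 and 89.1 and an SD of 0.27.

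Some keratins of activated epidermis had another order. KRT6A had 2003, 1459, 34.4, 2534 and 82.7, and KRT16, its partner, had 733, 465, 9.0, 1084 and 20.4. They were thus high in libraries 1, 2 and 4, while library 3 held less than library 2 of them, although it held more KRT10. KRT6B (2106, 826, 61.5, 2324 and 55.8) and KRT17 (586, 425, 147, 1252 and 140), which activated epidermis makes as well, had the order of the keratinocyte sum. KRT77, a keratin of eccrine sweat ducts and epidermis, went the other way, with 19.04, 0, 381, 203 and 39.7. In all, 74 genes (0.897%) had the same order of libraries as the keratinocyte sum, among them 18 of the 550 variable genes.

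Genes listed for neutrophils partly shared the pattern of the activated keratins. S100A8, a subunit of calprotectin that stressed keratinocytes make as well, had 3805, 3970, 70.6, 1276 and 103. S100A12 had 2540, 3450, 39.8, 1664 and 87.0. IL1R2, the decoy receptor of interleukin-1, instead had 768, 1528, 47.0, 18.1 and 1428, and was high in library 5 and low in library 4. All 5 neutrophil genes with a mean of at least 50 were variable, against 6.67% of all genes. The neutrophil list summed to 8881, 11377, 344, 3609 and 1912. Its order of libraries was found for 57 genes (0.691%), of which 6 were variable. Since keratinocyte sums were also high in libraries 1 and 4, the part of keratinocytes in these values was not tested.

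The sums of matrix and of macrophage genes were highest in library 2 and next highest in library 5, but not each gene was. The 19 matrix genes summed to 30004, 77797, 10906, 17569 and 58046, and 10 of them were variable, among them COL3A1 (3182, 10804, 735, 1444 and 6360) and FN1, which encodes fibronectin (1643, 4058, 351, 855 and 3094). Macrophage genes summed to 8261, 28151, 6735, 5464 and 18223, and 9 of 14 with a mean of at least 50 were variable. Over all genes, 6.67% were variable. LYZ, which encodes lysozyme, had 4330, 12366, 1745, 2061 and 11237. C1QA, a subunit of complement C1q made by macrophages, had 354, 2861, 997, 254 and 1262. DCN, which encodes the matrix proteoglycan decorin, had 2520, 3685, 2213, 1344 and 5050 and was highest in library 5, as was the macrophage gene CD68 with 333, 378, 159, 217 and 478. Library 2 alone was high for the scavenger receptor CD163 (102, 1137, 127, 70.1 and 181) and for SPP1, which encodes osteopontin (68.5, 1714, 43.4, 36.2 and 105).

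The order of the matrix sum was shared by 133 genes (1.61%) and that of the macrophage sum by 240 genes (2.91%). Among the variable genes these were 23 and 36 of 550. Only 1 of the 240 genes was on the macrophage list, and 10 of the 133 were on the matrix list. A shared order alone therefore does not assign a gene to a cell type. The reverse of the macrophage order was found for 234 genes, which shows that libraries 2 and 4 lay at opposite ends for many genes in either direction. Over all 8248 genes, the lowest value lay in library 2 for 2151 and in library 4 for 2065 genes.

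The T-cell sum, CD3D, CD3E, CD3G and CD2 together, was 45.7, 486, 1608, 1016 and 165 in libraries 1 to 5. The sum differed 35.2-fold between libraries 3 and 1 and rested on 48, 522, 1778, 1290 and 154 reads. CD3D had 5.7, 95.8, 400, 198 and 37.6, and CD3G had 6.7, 160, 402, 262 and 48.3. CD3E had 2.9, 134, 393, 266 and 30.1, where the value of library 1 stands for 3 reads. CD2 had 30.5, 95.8, 414, 289 and 49.4, so that it made up most of the sum in library 1 but not in the others. All 4 genes gave the same order, with library 3 highest, then libraries 4, 2, 5 and 1.

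This order was shared by 90 of the 8248 genes (1.09%), of which 86 lie outside the sum, and the reverse order was found for 36 genes (0.436%). Among the 550 variable genes, 37 had the order (6.73%), of which 33 lie outside the sum, and 1 had its reverse. Among the 7698 genes with a lower SD, 53 had the order (0.688%) and 35 its reverse. The order of the macrophage sum was shared by nearly as many variable genes, 36 of 550 (6.55%), of which 35 lie outside the macrophage list. The likeness of a gene to the T-cell sum was measured as the root mean square difference of their log2(value + 1) profiles, each minus its mean. The median of this difference over all genes was 1.87. Only 17 of the 90 genes came within 0.5 of the sum, as did 20 genes in any order, and both counts include CD3D and CD3G, which are part of the sum.

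The genes nearest to the T-cell sum in this order were largely those of T-cell receptors and killer cells. GZMK, a granzyme of CD8 T cells, differed from the sum by 0.18 and had 41.9, 394, 1368, 658 and 147. Its ratio to the sum stayed between 0.647 and 0.917. CD247, the zeta chain of the T-cell receptor complex, differed by 0.21 with 8.6, 124, 299, 220 and 26.8. CD8A, which marks cytotoxic T cells, differed by 0.25 with 19.99, 145, 501, 297 and 66.6. Their order of libraries follows from how they were chosen, so only the differences describe how near they came.

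Genes annotated as, or lying beside, antigen receptor segments were among the nearest genes as well. LOC607937 had the smallest difference of all, 0.18, with 20.9, 294, 930, 647 and 111. The newer RefSeq table annotates it as protein coding and places variable segments and a constant region beside it. LOC106557516, annotated as a constant region, differed by 0.27 with 2.9, 49.3, 105, 99.2 and 17.2. LOC607368, also among the nearest, differed by 0.40 with 39.0, 194, 781, 757 and 93.4. It has no entry there, so its kind of locus is not known.

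The 15 nearest also held CD3D and CD3G themselves and the following genes. CLEC2D, a ligand of the killer cell receptor CD161, differed by 0.28, and NKG7, a protein of cytotoxic granules, by 0.39 with 9.5, 186, 487, 195 and 61.2. With values scaled to library totals, NKG7 no longer had the exact order. PRKCH, a protein kinase C, PTPRCAP, a partner of the phosphatase CD45, CXCR6, a homing receptor of resident T cells, and IKZF3, a lymphocyte transcription factor, differed by 0.40 to 0.48. OASL, which interferon induces, differed by 0.34 with 28.6, 244, 512, 421 and 63.3. CD8B and LCK, the kinase that starts T-cell receptor signaling, came as near with 0.27 and 0.40, but had library 4 slightly above library 3 (414 against 381 and 213 against 188).

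**Figure D5:**
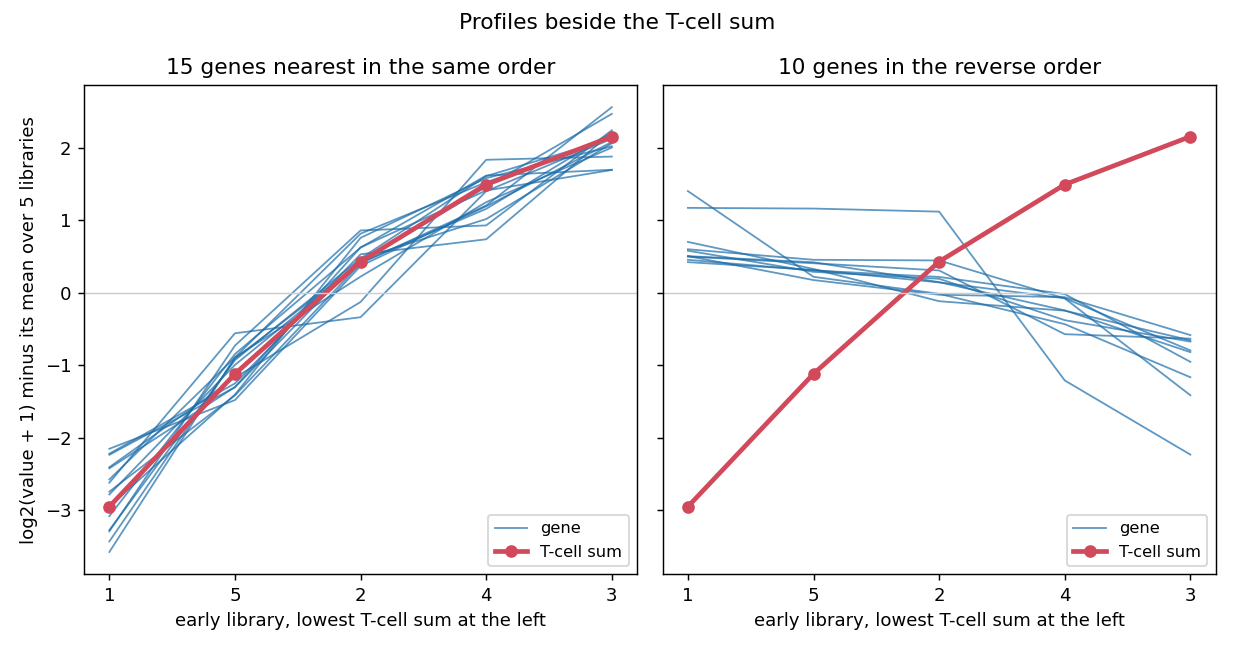
log2(value + 1) minus its mean over 5 libraries (y) for the T-cell sum (red) and single genes (blue), with libraries ordered by the T-cell sum (x), for the 15 nearest genes in the same order (left) and the 10 genes with the widest range in the reverse order (right). The left genes, of which CD3D and CD3G are part of the sum, have ranges of 4.12 to 5.90, around that of the sum (5.11), and the right genes ranges of 1.09 to 3.41, the widest being CYSLTR1.

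The lists of other T-cell genes and of killer cell genes had their highest sums in libraries 3 and 4 and their lowest in library 1, as the T-cell sum did. Of 9 other T-cell genes with a mean of at least 50, 7 were variable and 3 had the exact order (CD8A, CD247 and CD27). Over all genes, the shares were 6.67% and 1.09%. The list summed to 590, 1253, 3213, 2932 and 815. GATA3, its most abundant gene, which keratinocytes express too, had 393, 198, 460, 758 and 436 and an SD of 0.69. All 7 cytotoxic genes with a mean of at least 50 were variable, and they summed with the less abundant ones to 230, 1615, 4919, 4043 and 646. CCL5, a chemokine released by activated T cells, was the most abundant of them with 31.4, 451, 1735, 2261 and 247. PRF1, which encodes perforin, had 14.3, 101, 154, 12.6 and 25.8, so that library 4 held little of it despite its high T-cell sum.

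CD4 was scarce, with 5.7, 66.1, 23.5, 19.7 and 1.1, and did not have the order of the sum. No B-cell gene with a mean of at least 50 had the order either, although CD79A, the signaling chain of the B-cell receptor, was highest in library 3 as well (47.6, 103, 169, 108 and 32.2). MS4A1, the gene of CD20, had at most 13.4, and the list summed to 1088, 968, 889, 1014 and 761. None of the 4 B-cell genes with a mean of at least 50 was variable, and CD22, with 375 to 576, was the most abundant of them. Over all genes, 6.67% were variable and 1.09% had the order, so 4 genes are too few to tell a difference.

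Interferon-induced genes partly followed the T-cell sum. Their list summed to 3709, 10060, 10823, 9267 and 8789, with library 1 lowest as in the T-cell sum. Of 16 with a mean of at least 50, 7 were variable and 2 had the exact order. Over all genes, the shares were 6.67% and 1.09%. MX1 (26.7, 110, 265, 254 and 44.0) and IFIT3 (3.8, 74.4, 135, 80.3 and 37.6), both antiviral genes, had the exact order. BST2, which tethers virus particles, had it too, with 24.8, 271, 391, 373 and 95.5. CXCL10 did not, since library 5 was its highest.

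Some further receptors of T cells had the order of the sum but lay farther from it. PDCD1 had the order, as did PVRIG, another inhibitory receptor, with 0, 16.7, 128, 105 and 15.0, and CD27, a costimulatory receptor, with 1 read in library 1 and 52.1, 133, 107 and 24.7 in the others. IL2RB, a chain of the interleukin-2 receptor, had 10.5, 29.8, 147, 55.9 and 27.9. The differences of these 4 genes from the sum were 0.63 to 1.01, against 0.18 for GZMK.

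Genes in the reverse order mostly had small ranges. The median range on the log2(value + 1) scale was 0.80 for them and 0.84 for all genes, against 1.51 for genes in the order of the sum. CYSLTR1, a receptor for leukotrienes, was the variable one among them, with 144, 139, 12.7, 26.8 and 143 and a range of 3.41. It had nearly equal values in libraries 1, 2 and 5 and low ones in libraries 3 and 4, and with values scaled to library totals it no longer had the exact reverse order. LOC100683099 had 230, 85.6, 38.0, 63.8 and 101. KLRG1, an inhibitory receptor of killer cells that other leukocytes carry too, had 189, 107, 73.3, 97.7 and 146. SIRPB2, TOM1, DHRS1, CDKN2D, TLR1, SURF6 and LOC478825 completed the 10 with the widest range, of which TLR1 and LOC478825 also lost the reverse order with values scaled to library totals.

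Other cell types moved with the T-cell sum only in part. Matrix and macrophage sums were low in libraries 3 and 4, where the T-cell sum was highest, and high in library 2, where it was intermediate. Library 1 had the lowest T-cell sum together with a keratinocyte sum of 22281, but library 4, second in T-cell genes, had the highest keratinocyte sum of all with 28254. Of the mast cell genes, only HPGDS had a mean of at least 50 (121, 58.6, 302, 862 and 116), and it was highest in libraries 4 and 3. The mast cell protease gene CPA3 went another way with 29.5, 69.8, 1.8, 18.1 and 11.8. The part of these other cells in the order of the 90 genes was not tested. Skeletal muscle genes summed to 12.4 to 36.2, melanocyte and Schwann cell genes to 6.4 to 19.9, and the 3 of 8 erythroid genes in the table (HBM, ALAS2 and AHSP) to at most 1 read.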

How the data were processed

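QuantSeq 3′ libraries of 5 early CCH samples were analysed. According to the methods, the authors trimmed reads with Cutadapt, aligned them with STAR to CanFam3.1 with RefSeq genes, and counted them with featureCounts in a first and, on genes extended at the 3′ end, a further round. Multi-mapped reads were split evenly. Tool versions are not given in the sources used here. The deposited values are a normalized signal, read counts that the authors divided by 1 size factor per library. In the 5 columns, 100% of 82729 values above 0 were whole reads within 0.01 reads, so that the parts of split reads had been rounded. The table has 21 columns of values, of which 11 match no sample and were not used.

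Genes with a mean of at least 50 were ranked by the SD of log2(value + 1). Named were the 20 genes with the highest mean, the 20 with the largest SD, the 15 nearest to the T-cell sum in its order, the 10 with the widest range in its reverse order, the 4 genes of the sum, for each list the genes with the highest mean and largest SD, and CD1A8, CDH1, ITGAX, CD163, CD4, CD8A and MS4A1. A further gene of this rule is not reported here. Further genes were named after their values were seen. The part and its 25 gene lists were chosen with earlier results of these data known. Of 405 listed genes, 358 were in the table, and the sex-linked list, of which no gene was in it, was not analysed. Annotations come from the RefSeq table of the newer dog assembly UU_Cfam_GSD_1.0, in which 19767 symbols (85.0%) were found, and were used for names and neighbors only. Alternatives were other scalings (TMM of edgeR 4.0.16 in R 4.3.3 and library totals), pseudocounts, minimum levels and each library left out. Other steps used Python 3.11.15 with pandas 2.3.3 and numpy 2.4.6 and were tested on simulated data. Each SD covers the spread between the dogs together with that of all technical steps.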

Additional observations from a re-analysis of the deposited data

Results flagged for a closer look

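Of 134 values examined over the 5 libraries (sums of lists, named genes and library totals), 18 had a library whose gap to the nearest other library exceeded 0.71 of the whole range, Dixon's critical value for 5 samples. For independent and normally distributed values, chance alone would give about 6.7, or 1 in 20. The values here are counts without a log scale, and list sums contain named genes. Genes chosen for a large SD are also more likely to have such a gap, so the 18 cannot be judged against 6.7. Library 2 was the one apart in 7 of them, library 4 in 4, library 5 in 3, and libraries 1 and 3 in 2 each.

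In library 2, the gap took 0.989 of the range for LOC611632, 0.980 for LOC612036, 0.969 for LOC482436, 0.959 for SPP1, 0.910 for CXCL13, 0.896 for CD163 and 0.868 for IL6, all of them highest there. In library 5, FCER2 (0.945), the cytochrome gene CYP4B1 (0.762, with 787 against at most 251 elsewhere) and VGF (0.726) were highest. In library 4, LOC111095666 (0.894), the heat shock sum (0.752) and the mast cell sum (0.746) were highest and CDK1 (0.714) was lowest. The heat shock sum was 14231 there and 9911 to 10984 in the other 4, and HSPB1 alone had 7676 there and at most 4272 elsewhere. The mast cell sum was 1027 in library 4 and 165 to 385 in the others. HPGDS (862) and KIT (121) made up most of it, while CPA3, CMA1, MS4A2, HDC and GATA2 were each higher in library 2 than in library 4.

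In library 3, LOC609263 (0.768) and OBP (0.741) were highest. In library 1, the interferon sum was lowest (0.714), and the hemoglobin gene HBM had its only read of the 5 libraries, which gives a gap of 1 by construction.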

How the results depend on the processing

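Scaling to library totals or with TMM left the mean sums of the 8 lists recomputed within 1 SD of the reported means (0 of 16 moved). Both scalings kept the mean total of the values, and the SD is the spread between tumors (648 for the T-cell sum). A move was therefore hardly possible, and the count says little about how stable the sums are. The mean T-cell sum was 428 without library 3 and 819 without library 1, against 664 with all. Both scalings also kept the counts of genes within 1.5 times, but not always the genes. In the order of the T-cell sum, 81 genes were found with library totals (58 shared with the 90) and 79 with TMM (72 shared). In reverse, 44 (21 shared with the 36) and 41 (30 shared) were found. Of the 37 variable genes in the order, 3 lost it with library totals, NKG7, SPOCK2 and LOC606863, and 1 with TMM, LOC606863. CD3E alone, or the mean log2 value of the 4 genes, gave the same 90 and 36 genes. The minimum level set the counts by its own construction. With a mean of at least 20, 993 genes were variable, 57 were in the reverse order and 13 of the 20 most variable genes were shared. With at least 100, the counts were 314 variable genes, 50 in the order, 22 in reverse and 11 shared. Without a minimum, they were 4561 of 23266 genes, 167, 69 and 13. A median of at least 50 left 9 of the 20 and a pseudocount of 5 left 12, since both lower the rank of genes with values near 0. Leaving out a library gave 293 to 348 genes in the order and 232 to 303 in reverse, because 4 libraries allow fewer orders, and left between 12 and 16 of the 20. The SD of the 20 most variable genes moved by more than its approximate standard error in 10 of 100 cases on leaving out a library, whatever the mean then (a setting added after seeing the data). These were CXCL10 (0.90) and PDCD1 (1.56) without library 1, KRT77 (1.98), LOC611632 (1.71), LOC482436 (1.45), LOC612036 (1.32) and CXCL13 (1.82) without library 2, OOEP (0.90) without library 4, and FCER2 (1.78) and NECAB1 (1.61) without library 5. Of the 20 genes, 11 fell under a mean of 50 in at least 1 case. No paired analysis was possible because all libraries belong to 1 group and no value comes from a test. Genes at 3 reads or fewer in a library cannot be ranked there, which concerns CD3E, CD27, PDCD1, PVRIG and LOC106557516 in library 1, among others.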

Other observations

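Immediate early genes, which many stimuli switch on within minutes, differed between the early tumors in part. FOS had 412, 390, 119, 41.7 and 383, and NR4A1 had 120, 107, 21.7, 16.5 and 22.5, while IER2 was even at 346 to 451. Of 14 genes with a mean of at least 50, 3 were variable (against 6.67% of all genes), and the list summed to 5148, 6795, 4699, 4764 and 6637. Glycolysis and hypoxia genes had sums of 13314 to 17629 and a median SD of 0.43, against 0.34 over all genes. Of 18 with a mean of at least 50, 1 was variable (5.56%), near the share of 6.67% over all genes. That gene was VEGFA, the growth factor of blood vessels, with 118, 209, 206, 25.2 and 179, again lowest in library 4. Endothelial genes summed to 995, 1485, 691, 1248 and 1019, and the vessel marker PECAM1 had 296, 415, 151, 250 and 336. Adipocyte genes summed to 85.7, 306, 253, 74.8 and 136, with LPL, which encodes lipoprotein lipase, at 57.1, 93.0, 76.9, 27.6 and 47.2.

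Plasma cell genes summed to 543 to 788. Hair follicle and skin gland genes summed to 828 to 1359, with the lipid enzyme SCD at 303 to 506, and smooth muscle genes to 712 to 986. SENP3, a protease that removes SUMO from proteins, was listed at 0 in library 4 and at 63.3 to 97.1 in the other 4 libraries.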
